A study of Mus musculus with 3 samples.

Results

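The tiled regions described here lie in 5 windows of the mouse genome that hold large families of liver and xenobiotic genes, and they were measured in frontal cortex. How active these genes are in that tissue was not measured here. A tiled region is a run of 3 or more array probes in which no step between probe starts exceeds 500 bp on mouse build mm9, and a region was a member when its midpoint lay in one of the windows. From the start of the first region to the end of the last, the members span chromosome 19 from 39134295 to 40164351 (Cyp2c), chromosome 12 from 104913454 to 105576913 (Serpina), chromosome 4 from 59814948 to 61749388 (Mup), chromosome 4 from 114728002 to 115321495 (Cyp4) and chromosome 15 from 82210497 to 82452530 (Cyp2d). The windows held 82 of the 28880 tiled regions of the array, with 16 in Cyp2c, 24 in Serpina, 24 in Mup, 11 in Cyp4 and 7 in Cyp2d. Members are numbered by position within their window, so Mup 1 is the first region of the Mup window. The rule uses position alone and no measured value, though the windows were proposed with earlier results of these data known. The array files give positions and no gene names, so a window's name is that of the family it is taken to hold, and which gene, exon, intron or promoter a region covers was not analysed here.

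The mice were naive C57BL/6 males, 2 months old, and methylated DNA was captured from their frontal cortex with an antibody against 5-methylcytosine (methylated DNA immunoprecipitation, MeDIP). There was 1 group of 3 arrays, each from a DNA pool of 3 mice, with input DNA in the Cy3 channel and bound DNA in the Cy5 channel on every array, so a dye effect cannot be told apart from enrichment. By its title, the series asks whether methylated start sites keep the TATA-binding protein and RNA polymerase II away. The titles number the arrays 1 to 3 while the descriptions call each of them replicate 1, so the spread between arrays may be smaller than that between pools. No second tissue is used here, so bound DNA is set against input, and stretches of the genome against each other. Bulk cortex mixes neurons and glia, and a change in the share of cells cannot be told apart from a change within cells.

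Cytochrome P450 enzymes of the Cyp2c and Cyp2d families oxidise drugs, steroids and other lipids in liver, and Cyp4 enzymes hydroxylate fatty acids. Serpina genes encode secreted protease inhibitors such as alpha-1-antitrypsin, and the major urinary proteins (Mup) are made in liver and carry pheromones into urine. Each family arose by repeated local duplication, so neighbouring genes can be nearly the same in sequence. In vertebrate DNA 5-methylcytosine lies mostly at CpG dinucleotides, promoters without a CpG island are often methylated where the gene is silent, and this antibody captures a fragment better when it holds more methylated CpGs.

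The promoters of these families are shown because their CpG content bears on what the antibody can capture. They come from RefSeq (build GRCm38.p6, 250 bases before to 50 after the start, the first entry of each gene), and their positions cannot be set against the mm9 positions of the array. A promoter was matched by symbol for 13 of 15 Cyp2c genes on chromosome 19, 18 of 24 Serpina genes on chromosome 12, 14 of 22 Mup and 4 of 10 Cyp4 genes on chromosome 4, and 5 of 9 Cyp2d genes on chromosome 15. For each family the promoter with the most CpGs is followed by the one with the fewest, written 5′ to 3′ with every CG in capitals.

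Cyp2c70 (chr19:40187237-40187536, minus strand): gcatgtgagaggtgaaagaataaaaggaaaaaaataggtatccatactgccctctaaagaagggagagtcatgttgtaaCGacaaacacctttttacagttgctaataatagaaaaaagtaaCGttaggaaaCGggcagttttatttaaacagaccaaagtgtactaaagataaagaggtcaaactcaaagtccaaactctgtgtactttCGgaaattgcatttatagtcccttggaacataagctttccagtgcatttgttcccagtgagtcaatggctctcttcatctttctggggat
Cyp2c38 (chr19:39463026-39463325, minus strand): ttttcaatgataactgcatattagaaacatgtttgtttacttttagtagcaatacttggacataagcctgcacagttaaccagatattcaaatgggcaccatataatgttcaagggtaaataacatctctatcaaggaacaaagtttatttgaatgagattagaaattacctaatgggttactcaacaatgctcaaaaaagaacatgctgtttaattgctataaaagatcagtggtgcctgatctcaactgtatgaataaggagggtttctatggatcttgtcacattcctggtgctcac
Serpina3a (chr12:104112474-104112773, plus strand): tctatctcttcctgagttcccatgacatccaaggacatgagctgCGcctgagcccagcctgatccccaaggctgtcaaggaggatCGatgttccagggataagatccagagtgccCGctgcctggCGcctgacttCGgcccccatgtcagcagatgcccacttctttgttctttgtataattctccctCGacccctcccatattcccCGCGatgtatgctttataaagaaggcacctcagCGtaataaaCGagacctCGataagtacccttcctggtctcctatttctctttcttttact
Serpina3f (chr12:104214294-104214593, plus strand): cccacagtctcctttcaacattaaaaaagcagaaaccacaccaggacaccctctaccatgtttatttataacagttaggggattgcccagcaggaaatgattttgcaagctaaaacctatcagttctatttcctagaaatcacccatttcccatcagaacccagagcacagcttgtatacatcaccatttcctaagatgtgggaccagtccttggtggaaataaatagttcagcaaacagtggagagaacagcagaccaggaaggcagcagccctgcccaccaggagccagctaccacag
Mup15 (chr4:61439655-61439954, minus strand): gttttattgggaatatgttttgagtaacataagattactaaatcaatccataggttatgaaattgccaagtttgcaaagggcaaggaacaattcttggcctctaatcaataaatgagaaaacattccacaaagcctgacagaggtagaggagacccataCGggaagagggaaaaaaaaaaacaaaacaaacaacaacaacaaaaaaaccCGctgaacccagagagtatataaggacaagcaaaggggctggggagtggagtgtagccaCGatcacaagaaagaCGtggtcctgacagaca
Mup7 (chr4:60070426-60070725, minus strand): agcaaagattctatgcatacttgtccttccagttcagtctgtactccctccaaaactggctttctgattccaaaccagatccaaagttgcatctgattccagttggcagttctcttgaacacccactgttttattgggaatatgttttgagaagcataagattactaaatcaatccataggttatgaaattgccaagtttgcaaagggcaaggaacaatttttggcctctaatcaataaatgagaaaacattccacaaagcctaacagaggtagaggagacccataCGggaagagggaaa
Cyp4b1 (chr4:115647672-115647971, minus strand): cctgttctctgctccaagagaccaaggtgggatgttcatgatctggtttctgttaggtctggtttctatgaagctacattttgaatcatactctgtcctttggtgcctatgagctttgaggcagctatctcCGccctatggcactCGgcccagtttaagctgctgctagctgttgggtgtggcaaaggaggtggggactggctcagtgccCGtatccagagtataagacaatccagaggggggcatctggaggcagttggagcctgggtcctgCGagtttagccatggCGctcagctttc
Cyp4a29 (chr4:115241794-115242093, plus strand): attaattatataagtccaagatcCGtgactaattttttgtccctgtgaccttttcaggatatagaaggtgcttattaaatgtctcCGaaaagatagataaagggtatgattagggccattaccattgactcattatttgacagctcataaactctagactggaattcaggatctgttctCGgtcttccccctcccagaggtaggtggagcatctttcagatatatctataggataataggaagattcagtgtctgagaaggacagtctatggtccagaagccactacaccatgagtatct
Cyp2d10 (chr15:82407145-82407444, minus strand): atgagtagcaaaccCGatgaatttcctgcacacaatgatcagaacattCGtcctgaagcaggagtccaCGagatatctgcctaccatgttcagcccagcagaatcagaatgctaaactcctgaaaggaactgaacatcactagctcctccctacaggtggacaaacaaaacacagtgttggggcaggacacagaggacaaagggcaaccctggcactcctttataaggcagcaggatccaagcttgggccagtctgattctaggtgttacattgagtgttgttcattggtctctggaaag
Cyp2d11 (chr15:82393973-82394272, minus strand): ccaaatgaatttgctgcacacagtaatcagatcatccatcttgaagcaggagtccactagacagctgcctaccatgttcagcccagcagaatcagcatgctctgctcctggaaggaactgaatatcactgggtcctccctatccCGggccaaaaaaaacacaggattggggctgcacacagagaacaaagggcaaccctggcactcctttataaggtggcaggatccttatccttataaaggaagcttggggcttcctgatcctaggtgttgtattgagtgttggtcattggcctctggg

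CpGs were sparse in all 5 families. The median promoter held 1 CpG in Cyp2c (range 0 to 4) and 1 in Cyp2d (1 to 3), 3 in Mup (1 to 4) and in Cyp4 (3 to 5), and 4 in Serpina (0 to 11), against 7 over the 27025 promoters of the table. The median GC content was 36% in Cyp2c and 40% in Mup, against 48.5% in Serpina, 49% in Cyp2d and 52.7% over all promoters. The letters TATAAA, searched on both strands, were found in 5 of 5 Cyp2d and 9 of 13 Cyp2c promoters, in 4 of 18 Serpina, 2 of 14 Mup and 1 of 4 Cyp4 promoters, and in 14.2% of all promoters of the same length. Close copies were frequent among Mup promoters. An identical run of 45 bases, the length of the shortest array probe, was shared by 51 of 91 pairs of Mup promoters, 2 of 10 Cyp2d pairs, 5 of 78 Cyp2c pairs, 11 of 153 Serpina pairs and 0 of 6 Cyp4 pairs. The longest run shared by the 2 Mup promoters printed here, Mup15 and Mup7, was 66 bases.

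**Figure D1:**
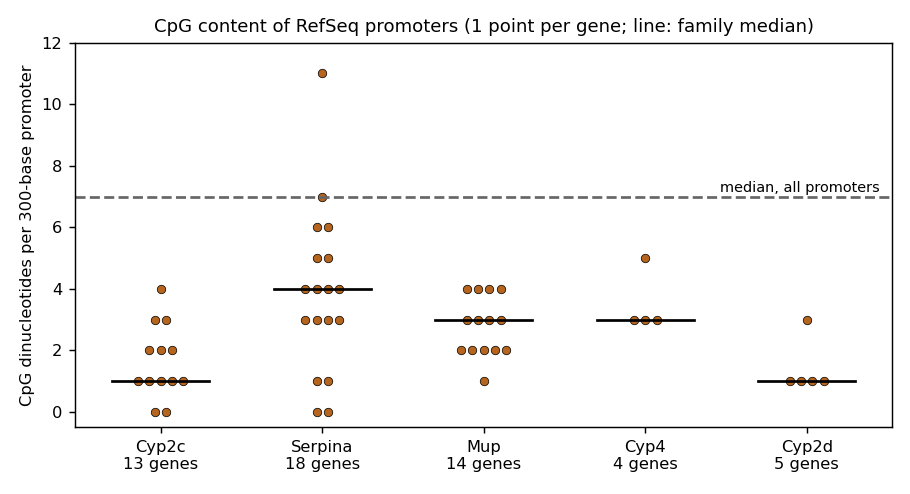
Number of CpG dinucleotides in the RefSeq promoters of each family (y axis, per 300 bases), with 1 point per gene, a solid line at the family median and a dashed line at the median of all promoters. The Cyp2c and Cyp2d points lie at 4 or fewer, and 1 Serpina promoter, Serpina3a, reaches 11.

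The value of a region is its mean log2 ratio of bound over input signal minus the median probe of its array, so 0 is the median probe and not an unmethylated site, and errors are SDs over the 3 arrays. Region values were tested with limma over all 28880 regions with Benjamini-Hochberg adjustment at 0.05. By this test 27.9% of all regions were higher than the array median and 38.1% lower. Among the 82 members 17 were higher, 41 were lower and 24 passed in neither direction, and their median was -0.32 against -0.11 over all regions. The split depends on the zero point: with the mode of each array, which lay 0.62 to 0.79 above the median, 8 members were higher and 69 lower. Very dim probes can sit near these modes. The Cyp2c 1 probe at 204 bp, with 0.077 times the median input signal, was at 0.71, 0.82 and 0.63 on the arrays. The mode may thus reflect unmeasured probes, which was not tested. Differences between clusters and flanks do not change with the zero point.

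The 5 windows did not behave alike. The ratio of bound to input DNA was lowest in Mup, where the mean over regions was -0.64 ± 0.17 (n = 3), and highest in Cyp2d, at 0.49 ± 0.10. Cyp4 was at -0.35 ± 0.03, Cyp2c at -0.33 ± 0.27 and Serpina at 0.13 ± 0.02. In Mup 19 of 24 regions were lower and 1 was higher, whereas in Cyp2d 5 of 7 were higher and 1 was lower. Cyp4 had 6 of 11 lower and 1 higher, Cyp2c 6 of 16 lower and 0 higher, and Serpina was split into 10 higher and 9 lower. Members at least 2-fold from the median were 6 higher regions in Serpina and 2 in Cyp2d (8.84% of all regions), and 6 lower ones in Mup, 2 in Serpina and 1 in Cyp2c (8.13% of all regions).

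**Figure D2:**
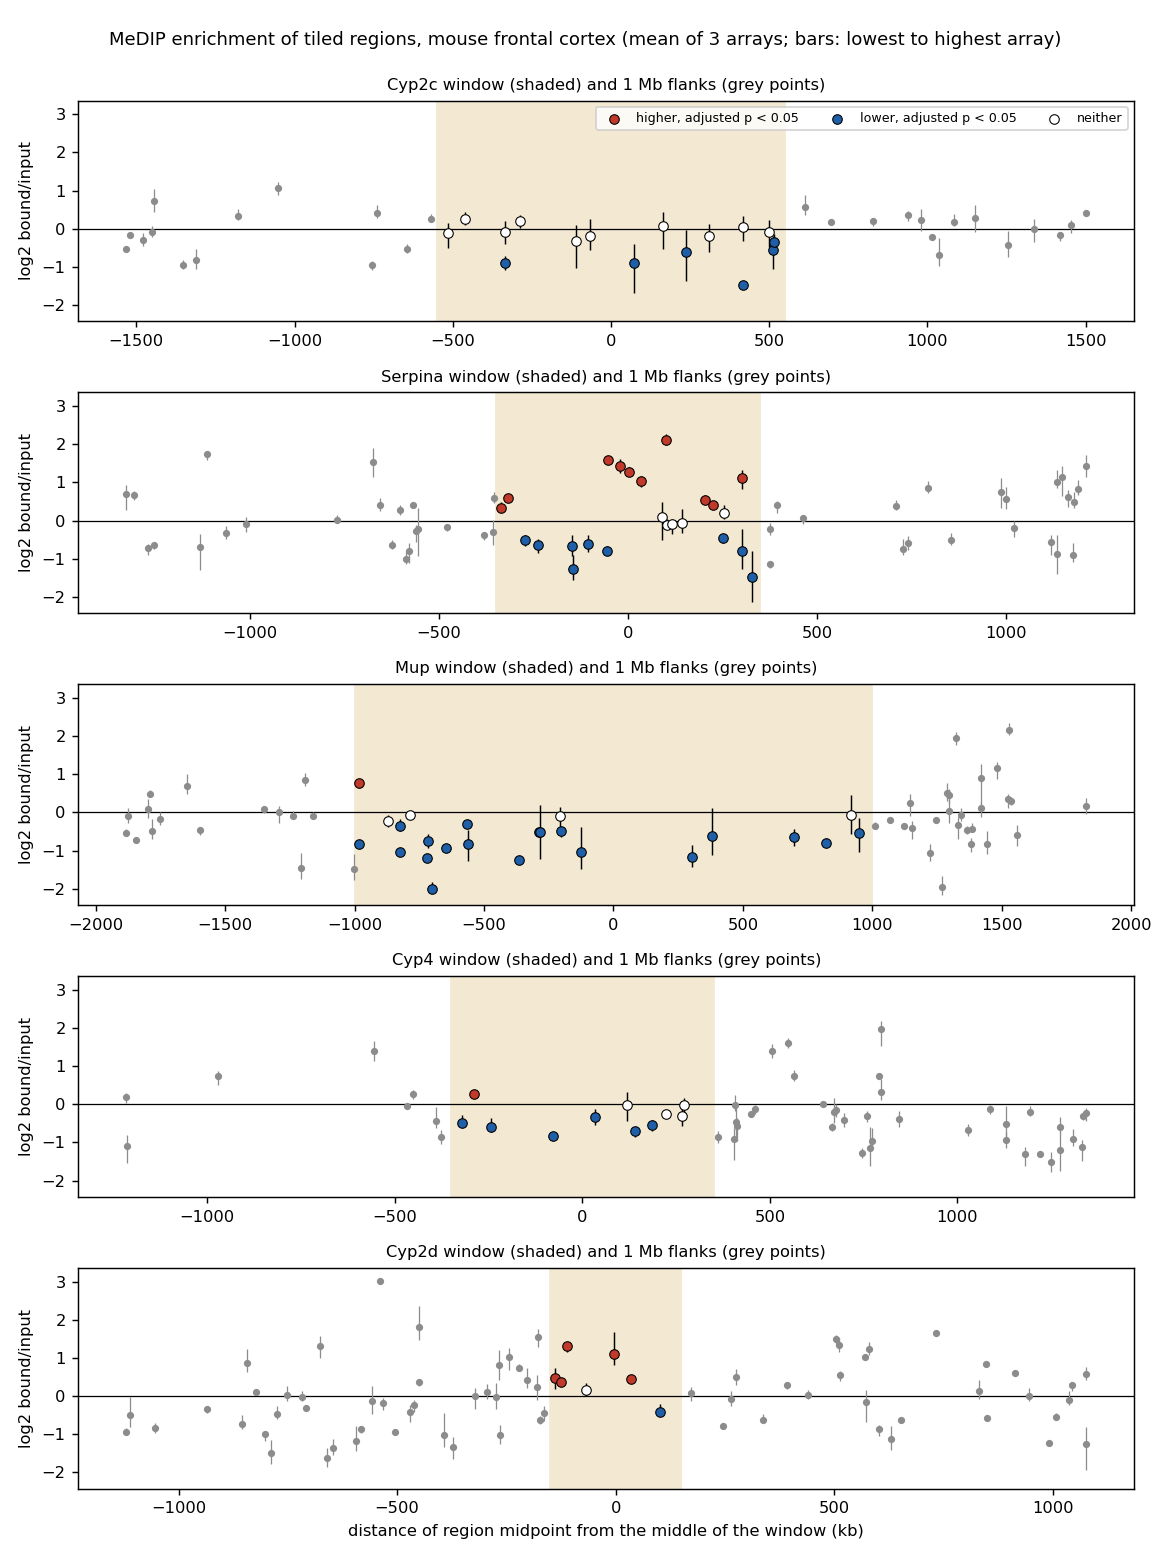
Log2 ratio of bound over input DNA (y axis) for the tiled regions of each window, shaded, and of its 1 Mb flanks, against the distance of the region's midpoint from the middle of the window in kb (x axis). Points are means of 3 arrays, bars run from the lowest to the highest array, and colours mark members that passed the test. Mup members lie below 0 in 23 of 24 cases, and Serpina members form runs of lower and higher values.

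Setting each window against its flanks, the regions with midpoints within 1 Mb on either side, left Cyp2d highest and, in the main setting, Mup lowest. Mup was below its 42 flank regions by -0.57 ± 0.19, with -0.75, -0.38 and -0.59 on the 3 arrays. Cyp2d was above its 68 flank regions by 0.53 ± 0.05, with 0.59, 0.52 and 0.49. Both differences had 1 sign on all arrays and were larger than their SD. Cyp2c was below its 27 flank regions by -0.31 ± 0.28, and array 1 alone, at -0.63, stood apart from -0.13 and -0.16. Without array 1 this difference was -0.15. Serpina (0.06 ± 0.09 against 43 flank regions) had no common sign on the arrays, and Cyp4 (-0.07 ± 0.05 against 45) differed by little more than its SD. The Cyp4 difference depended on the setting. It was 0.029 with the median in place of the mean of a region's probes, and -0.15 ± 0.06 with loess. It was -0.20 ± 0.02 over probes with input above background, -0.19 ± 0.05 over those with both channels above it, and -0.25 ± 0.08 with the series matrix values. It was -0.36 against the low flank alone and -0.0018 against the high one. With normexp background correction the differences shrank to -0.33 in Mup, 0.20 in Cyp2d and -0.12 in Cyp2c. The low end changed hands in 2 settings: Cyp2c was at -1.04 and Mup at -0.63 with the series matrix values, and Cyp2c was at -1.27 and Mup at -0.64 where only probes with measured input were kept. With 3 arrays, flipping signs exactly (two-sided permutation) gives no p below 0.25, so none of these differences could pass 0.05.

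Between clusters, 10 pairs were compared, with the same limit on the test (the smallest possible p becomes 0.28 after adjustment over the 10 pairs). Mup was below Cyp2d by -1.14 ± 0.23 and below Serpina, since Serpina minus Mup was 0.78 ± 0.17. Cyp4 was below Cyp2d by -0.84 ± 0.10, with -0.93, -0.84 and -0.74 on the arrays. Serpina lay between, above Cyp4 by 0.48 ± 0.03 and below Cyp2d by -0.36 ± 0.11. Mup minus Cyp4 was -0.30 ± 0.19, all negative, with array 2 at -0.08. Cyp2c was below Cyp2d by -0.82 ± 0.37 and below Serpina by -0.46 ± 0.26, and Cyp2c minus Mup was 0.32 ± 0.18, which turned to -0.48 over probes with input above background and -0.35 with the series matrix values. Cyp2c minus Cyp4 was within its spread in the main setting (0.02 ± 0.29, with -0.31, 0.23 and 0.13 on the arrays), but -0.75 ± 0.28 over probes with input above background and -0.61 ± 0.14 with the series matrix values.

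**Figure D3:**
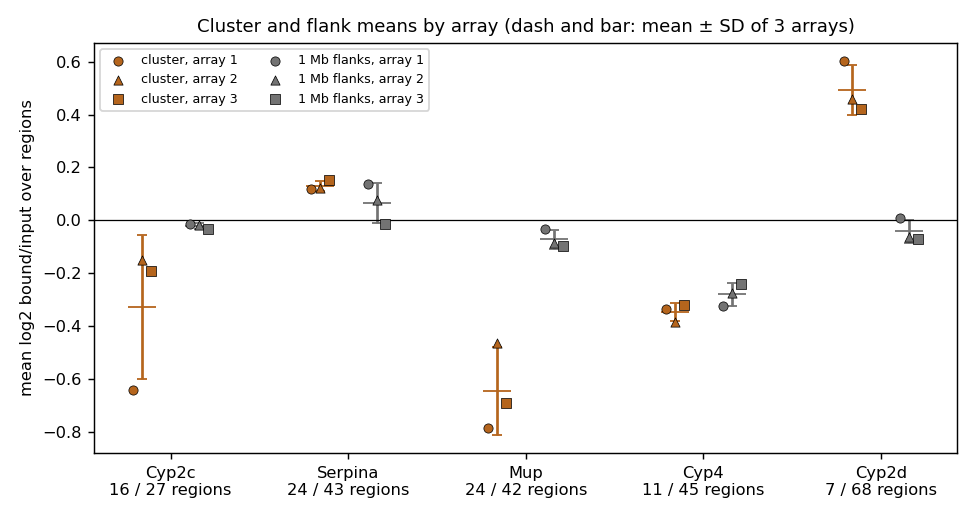
Mean log2 ratio of bound over input DNA over the regions of each window and of its flanks (y axis), for each of the 3 arrays, with the mean and SD. Cyp2d lies above and Mup below its flanks on every array, and array 1 is the lowest point of Cyp2c.

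How much of each value was measured differed between windows. Of the 129 Cyp2c probes, 29 (22.5%) had input well above background on all arrays and 8 (6.20%) had both channels above it, against 63.0% and 40.7% in the flanks. In 68 Cyp2c probes (52.7%) neither channel was above background on any array, so the ratio there is not a measurement, against 14.0% in the flanks and 14.2% over all regions. Ratios of dim probes still enter the region means, and some raise them. The Cyp2c 6 probe at -5.5 bp, with 0.076 times the median input signal, was at 0.71, 0.85 and 0.65. Others lay below 0, such as that at -347.5 bp (0.38 times), at -2.28, -1.33 and -1.14. Their net effect on the Cyp2c mean was not tested. The mean log2 input signal was 7.35 ± 0.23 in Cyp2c against 9.06 ± 0.24 in its flanks. In Cyp2d 68.3% of 82 probes had both channels above background, in Serpina 55.2% of 286, in Cyp4 37.7% of 175 and in Mup 32.5% of 200, and the share over all regions was 42.2%. A ratio is an upper limit on an array where input but not bound DNA is above background. Probes with input above background on all arrays but both channels above it on fewer made up 27.0% of Mup and 14.6% of Cyp2d probes, against 26.1% and 24.7% in their flanks.

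**Figure D4:**
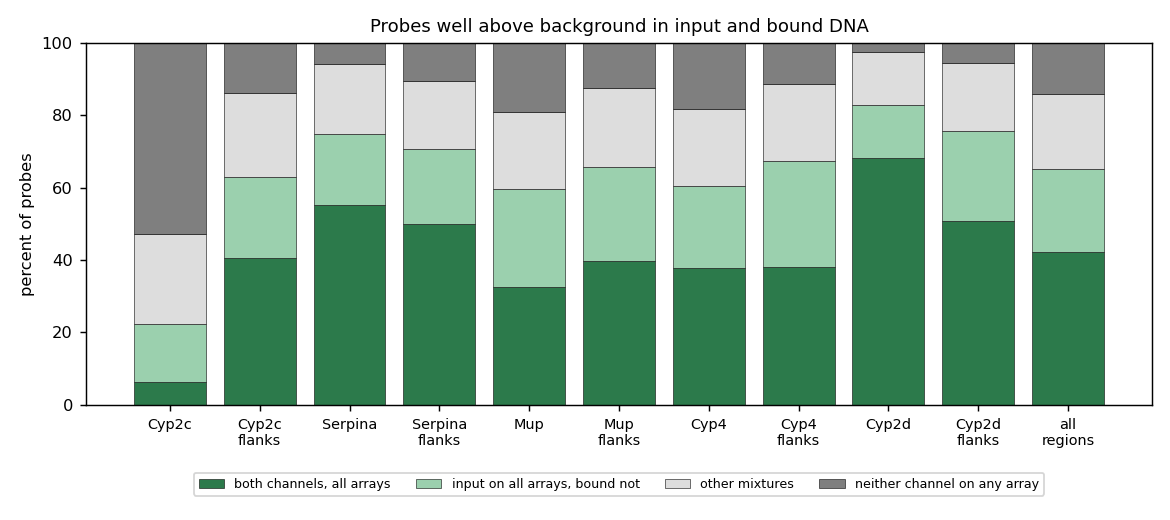
Share of probes (y axis, percent) in each window, its flanks and all regions, by whether input and bound signal were well above background. Cyp2c stands out with 52.7% of its probes above background in neither channel on any array.

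Mup, the family of urinary pheromone carriers, held the lowest member. Mup 9, on chromosome 4 from 60097852 to 60097965 (3 probes), was at -2.10, -1.82 and -2.08 on the 3 arrays, a mean of -2.0 ± 0.16 or 4.0-fold below the median probe (limma adjusted p = 1.52e-07). All 9 of its measurements were above background in each channel, which held for no other lower member. Its input was brighter than in 99.7% of all regions, with a mean log2 input signal of 12.6. Most other low Mup regions rested in part on bound signals near background. Mup 13 (60435678 to 60436031, 3 probes) was at -1.23, -1.22 and -1.31, with 5 of 9 input and 2 of 9 bound measurements above background. Mup 7 (60080469 to 60081259, 10 probes) was at -1.29, -1.15 and -1.13, with 24 of 30 input and 16 of 30 bound measurements above it. The arrays lie close together for both. That all 3 arrays are below 0 follows from the rule by which these regions were named.

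Low Mup regions followed each other in tiling order, though the lengths of such runs elsewhere on the array were not counted. Mup 7 to Mup 15, 9 regions in a row from 60080469 to 60515927, were all lower by the test, from -2.0 to -0.29, and so were the 6 regions Mup 17 to Mup 22. Long stretches without tiled regions lie within these runs: 199183 bp after Mup 12, 425402 bp after Mup 18 and 314626 bp after Mup 20. Whether probes of different Mup regions read the same copied sequence was not tested. Of these 15 regions, Mup 15 (-1.21, 0.18 and -0.50, with 0 of 9 bound measurements above background) and Mup 20 (-1.12, 0.12 and -0.86) were not below 0 on array 2. The remaining 2-fold lower members were Mup 19 (61101528 to 61101962, -1.16 ± 0.29), Mup 5 (59976132 to 59977360, -1.04 ± 0.04) and Mup 18 (60675308 to 60676125, -1.02 ± 0.56). Mup 18 had -1.48 and -1.21 on arrays 1 and 3 and -0.39 on array 2, the widest spread of the 2-fold lower Mup members. The 1 higher member, Mup 1, is the first region of the window (59814948 to 59815619, 9 probes) and was at 0.65, 0.85 and 0.80. It did not pass with the mode as zero, at 0.07.

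Bright input was more frequent in Mup than around it, as it was in Cyp2d, Cyp4 and Serpina. Probes with over 4 times the median input signal made up 20.0% of Mup probes, 13.5% of flank probes and 12.5% of probes in all regions. Such probes were 18 of 82 in Cyp2d (flanks 16.9%), and the share was 17.7% in Cyp4 (12.9%) and 17.1% in Serpina (14.1%). The 15 Mup regions with such a probe averaged -0.72 ± 0.09, with 12 lower, and the 9 without averaged -0.53 ± 0.30, with 7 lower. With all such probes left out, Mup minus flanks was -0.43 ± 0.24, and over probes with both channels above background it was -0.60 ± 0.05, with 9 Mup regions left. The part of sequence copies in the input signal was not tested. Mup regions were also short, with a median of 804.5 bp against 1337 bp in the flanks. The 10 Mup regions of at most 600 bp averaged -0.73 ± 0.23, against 0.13 ± 0.04 for all 3143 regions of that length, and the 10 of 1000 to 1800 bp averaged -0.59 ± 0.08 against -0.04 ± 0.02 for 19765.

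Serpina, the window of protease inhibitor genes, had the widest range of any window. Its regions differed among themselves with an SD of 0.94, against 0.33 among Cyp4, 0.46 among Cyp2c, 0.54 among Mup and 0.57 among Cyp2d regions, while a single Serpina region typically varied by an SD of 0.16 over arrays. The SD between regions was 0.74 over the whole array, 0.74 in the Serpina flanks and 0.92 in the Cyp2d flanks. The highest member of all windows was Serpina 14 (chromosome 12 from 105350167 to 105351088, 6 probes), at 2.26, 2.05 and 1.99, a mean of 2.10 ± 0.14 or 4.28-fold above the median probe (limma adjusted p = 1.06e-07). All 18 of its bound measurements were above background but 13 of 18 of input, so the ratio is a lower limit in part. As scored it lay above 99.1% of all regions. Over its probes above background in both channels, with arrays recentred on the median of such probes, it was at 1.76. That value and 2.10 do not share a zero point, so they do not show what leaving probes out did. The lowest Serpina member was Serpina 24 (105576434 to 105576913, 6 probes), at -2.13, -1.52 and -0.80, a mean of -1.49 ± 0.66. The arrays spread widely there, and only 4 of 18 bound measurements were above background.

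Higher and lower Serpina regions lay in runs. Runs are not particular to this window, since consecutive lower regions, from -1.50 to -0.30, also lay in the high flank of Cyp4. Serpina 3 to Serpina 8, 6 regions in a row from 104976195 to 105196228, were all lower, from -1.28 to -0.51. The lowest of them was Serpina 6 (105103928 to 105104913), at -1.38, -1.56 and -0.89, with 19 of 24 bound measurements above background. Serpina 9 to Serpina 12, the next 4 regions, from 105197062 to 105283844, were all at least 2-fold higher. Serpina 9 was at 1.67, 1.49 and 1.57, Serpina 10 (105228067 to 105228807) at 1.43, 1.62 and 1.24, Serpina 11 (105251733 to 105253109) at 1.40, 1.26 and 1.18, and Serpina 12 (105282513 to 105283844) at 0.88, 1.16 and 1.07. The runs were picked by these calls, so that no array of the higher run overlapped any of the lower run is no separate result. All 21 bound measurements of Serpina 10 were above background, 36 of 39 in Serpina 11, 32 of 36 in Serpina 9 and 19 of 30 in Serpina 12. Serpina 22 (105551615 to 105551862, 4 probes) was also 2-fold higher, at 1.20, 1.32 and 0.81.

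The means of adjacent regions were also compared, for all 4290 pairs of consecutive regions at most 5000 bp apart, after the data were seen. Over the series 60.8% of such pairs differed by limma's test, and 11 of 15 pairs of members did. Pairs that differed and had means of opposite sign made up 6 of the 15 member pairs and 34.2% of all pairs, so the members were near the share of the series. These are differences between whole regions and do not place a change in the gap between them. Serpina 8 and Serpina 9 are 833 bp apart, at -0.80 and 1.57, a difference of 2.37 ± 0.21 (limma adjusted p = 5.2e-06). Serpina 14 and Serpina 15 are 2172 bp apart, at 2.10 and -0.12, a difference of -2.22 ± 0.24. The first probe of Serpina 15 was still at 1.99, 2.34 and 1.74 on the arrays and its last at -1.29, -2.20 and -1.88, so its ends differed, with the last probe's bound signal not above background on all arrays. Serpina 22 and Serpina 23 are 468 bp apart, at 1.11 and -0.79, with -2.47 and -2.19 on arrays 1 and 2 and -1.03 on array 3. Serpina 20 and Serpina 21 are 852 bp apart and differed by 0.65 ± 0.21. In Mup the difference of Mup 2 from Mup 1, 1872 bp apart, was -1.59 ± 0.12, and it was 0.054 over probes above background in both channels. In Cyp2c the difference of Cyp2c 13 from Cyp2c 12, 453 bp apart, was -1.52 ± 0.27, but all 21 bound measurements of Cyp2c 12 were at background.

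Cyp2d, the smallest window, had a ratio above the median in most of its regions. Its highest member was Cyp2d 3 (chromosome 15 from 82237376 to 82238984, 20 probes), at 1.41, 1.33 and 1.16, a mean of 1.30 ± 0.13 (limma adjusted p = 2.44e-06), and 58 of its 60 bound measurements exceeded background. Cyp2d 5 (82346445 to 82346932, 6 probes) was at 1.68, 0.82 and 0.81, so array 1 stood apart. There 8 of 18 bound and 7 of 18 input measurements were above background. The other higher members, Cyp2d 1, Cyp2d 2 and Cyp2d 6, were between 0.37 and 0.48. Cyp2d 4 was at 0.17 ± 0.18 and did not pass. The only lower member, Cyp2d 7 (82451153 to 82452530, 16 probes), is the last region of the window and was at -0.53, -0.22 and -0.50. Over probes above background in both channels, with arrays recentred, 1 of 6 Cyp2d regions was higher, and the difference from the flanks was 0.34 ± 0.07 in place of 0.53.

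Cyp4, the window of fatty acid hydroxylases, was lower than the array median, as were its flanks, which averaged -0.28 ± 0.04. Its lowest member, Cyp4 4 (chromosome 4 from 114970936 to 114971867, 12 probes), was at -0.88, -0.77 and -0.84 (limma adjusted p = 5.84e-05), and 11 of its 36 bound measurements exceeded background. Its highest, Cyp4 2 (114760146 to 114761514, 15 probes), was at 0.35, 0.21 and 0.28, and its adjusted p of 0.0498 by limma fell past 0.05 with any 1 array left out. Cyp4 regions varied least among themselves.

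Cyp2c, the window with the dimmest probes, had 6 of 16 members lower, a share near the 38.1% over all regions, and none that passed as higher. With the series matrix values 15 of 16 were lower, with a mean of -0.98. Cyp2c 13 (chromosome 19 from 40066626 to 40067097, 6 probes) was the lowest, at -1.54, -1.43 and -1.47 (limma adjusted p = 8.36e-07), and 14 of 18 input and 5 of 18 bound measurements exceeded background. The arrays agree there, and the value is an upper limit in part. Cyp2c 2 (39187352 to 39188501, 12 probes) was the highest, at 0.09, 0.43 and 0.27, but 1 of its 36 bound measurements was above background, and with the series matrix values it was at -0.90. Array 1 was the lowest of the 3 in 13 of 16 Cyp2c regions and in 14 of 24 Mup regions, against 32.8% of all regions. Over probes with input above background only 4 Cyp2c regions could be scored, all 4 of them lower, with a mean of -1.26 ± 0.29 against 0.01 in the flanks. Across the 16 regions the ratio fell as input rose (Spearman's rho -0.84), against 0.03 over all regions. This is a description, since ratio and input share the Cy3 signal.

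Enrichment also varied along single regions, which can be seen where a region is 1000 to 1800 bp long. The centre, probes within 200 bp of the midpoint, was compared with the edges, probes over 500 bp from it, in all 18328 regions that allowed it, 30 of them members. Over the series 14.7% had a higher and 33.4% a lower centre by limma's test. Among the 30 members 6 had a higher centre and 6 a lower one, and the median difference was -0.14, against -0.27 over all regions tested. Over probes above background in both channels 3 members had a lower centre.

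Serpina 9 had the largest excess at the centre, which was at 2.69, 2.74 and 2.73 while the edges were at 0.70, 0.43 and -0.04, a difference of 2.36 ± 0.39 (limma adjusted p = 4.36e-05). All 6 centre measurements of bound DNA were above background, and 4 of 6 at the edges. The edges held 2 probes. That at 533.5 bp, above background in both channels on all arrays, was at 1.067, 1.045 and 1.115. The other, at -540 bp, was at 0.33, -0.19 and -1.19, with neither channel above background on all arrays. The size of the excess thus rests in part on a dim probe. Cyp4 10 (115314275 to 115315651) had a centre of 0.17 ± 0.49 and edges of -1.03 ± 0.29. That difference, 1.20 ± 0.47, was 0.15 over probes above background in both channels. Cyp2c 1 (39134295 to 39135688) differed by 1.27 ± 0.85, but 0 of 15 bound measurements at its centre were above background, so it is not a measured shape.

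The largest deficits at the centre were in Mup. In Mup 2 (59817492 to 59818910) the centre was at -2.33, -1.63 and -2.16 and the edges at 0.48, 0.14 and 0.45, a difference of -2.40 ± 0.55 (limma adjusted p = 5.1e-05). All 12 input measurements and 1 of 12 bound measurements at the centre were above background, so the centre is an upper limit there. The ends of Mup 2 differed. At -592.5 bp, with input above background, the arrays were at -1.02, -1.67 and -2.05, and at 686.5 bp at 1.82, 1.47 and 1.45. The outermost left probe, at 0.63, 0.78 and 0.38, did not have input above background on all arrays. The low values thus reached into the left edge. The mean of Mup 2 turned from -0.82 to 0.85 when probes with bound DNA below background were left out and arrays recentred. The probes left out are the low ones. Mup 5 had a centre of -1.55 ± 0.40 and edges of 0.34 ± 0.67. There 5 of 15 bound measurements at the centre were above background, and 4 of 9 at the edges in each channel. The only edge probe of Mup 5 above background on all arrays was at -0.26, -0.51 and -1.34, so its positive edge mean is not a measured shape. Cyp4 3 (114806392 to 114807779) had a centre of -2.52, -1.48 and -0.89, spread widely over the arrays, and edges of 0.35, -0.35 and -0.41. With normexp its difference of -1.49 was -0.21 and did not pass (limma adjusted p = 0.17).

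**Figure D5:**
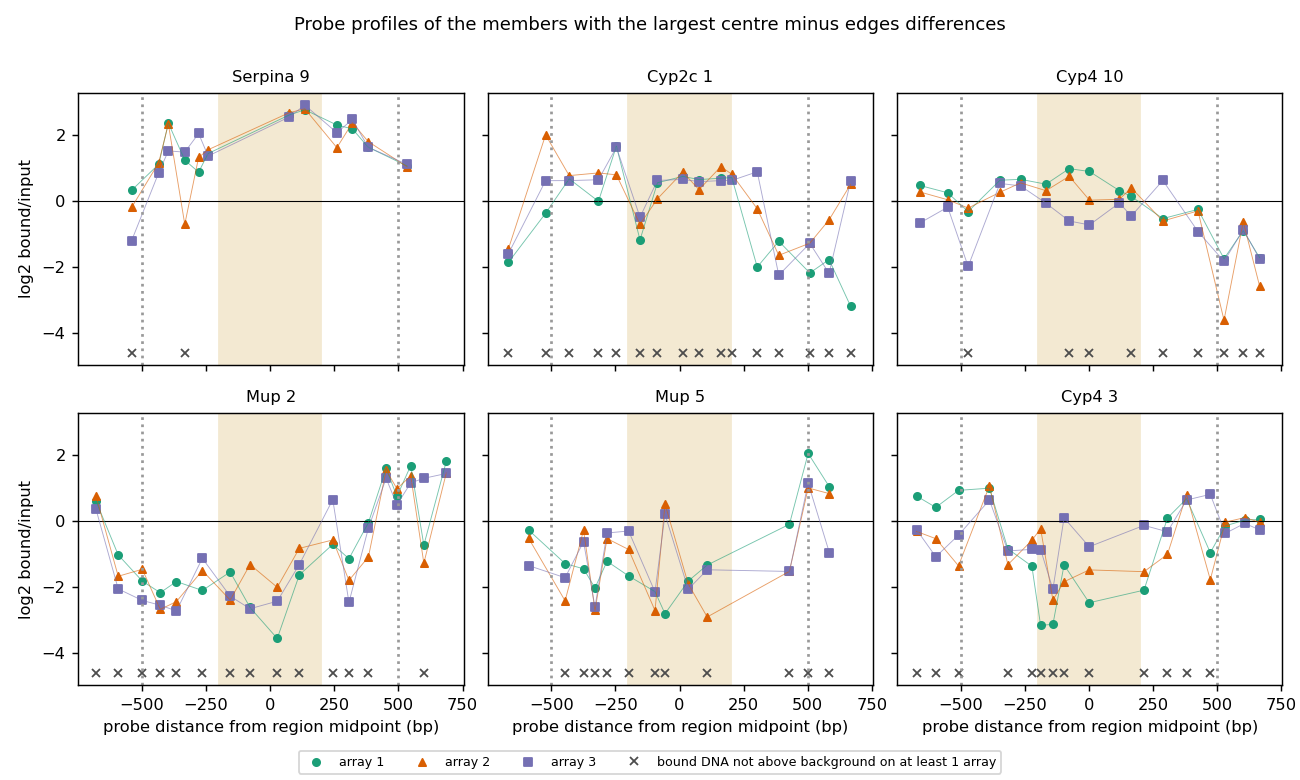
Log2 ratio of bound over input DNA for each probe and array (y axis) against the probe's distance from the region's midpoint in bp (x axis), in the 6 members with the largest centre minus edges differences. The shaded band is the centre, dotted lines mark where the edges begin, and crosses mark probes whose bound signal was not above background on at least 1 array. Serpina 9 rises to 2.72 at its centre and Mup 2 falls to -2.04, the latter over probes marked with crosses.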

How the data were processed

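Bound and input DNA of 3 frontal cortex pools were hybridised to 1 two-colour array each. Per the labels' protocols, 2 µg of DNA per pool was sonicated, captured with 10 µg of antibody and 50 µl of protein G, and whole-genome amplification was run on both fractions, a step that can alter how evenly sequences are represented. Per the file headers, the intensities of 420288 spots per array (4474 of them controls) come from Agilent Feature Extraction 10.7.3.1 on a design placed on mm9 (NCBI37). The statistics in the file headers list linear dye normalisation factors and spatial detrending fits for these deposited intensities. A deposited log10 ratio column was not used. Log2 ratios deposited by the authors in the series matrix followed the log2 ratio of bound to input spot medians less background (r of 0.999 or more over spots on each array), with column medians of -0.97 and with a normalisation not given in the sources used here.

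Outlier spots were left out, spots of 1 probe were averaged, and the median of 409606 distinct probes was subtracted from each array, with no loess or quantile step. Before centring the medians were -0.19, -0.19 and -0.09. Where only probes above background were kept, region values were recentred on the median of the kept probes of each array. Regions were tested with limma 3.58.1 (R 4.3.3), after the fit was tested on simulated data. The number of arrays limits the precision of every value. A measurement is 1 probe on 1 array, and above background means the scanner software's flag for signal well above background. The normexp alternative used spot medians, as the files used here hold no mean signal. Differences between clusters and flanks were taken per array and tested by an exact sign-flip permutation. Named regions were the highest and lowest of each cluster, those past the threshold at least 2-fold from the median with 1 sign on all arrays (up to 10 per direction), and the 3 largest centre minus edges differences per direction. Other regions are named for their place in a run or a pair. The members and lists were chosen with earlier results of these data known. Neighbouring regions were compared after the data were seen, and promoter features were read with Python 3.11.15.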

Additional observations from a re-analysis of the deposited data

How the results depend on the processing

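With the mode as zero 2599 regions of the array were higher and 21961 lower, and 8 members were higher and 69 lower. Over probes above background in both channels 21 members were lower, 3 had a lower centre and 4 neighbouring pairs differed. Only 44 members kept enough probes in that setting, which also leaves out probes with low bound signal. No Cyp2c region could be scored there, and region values in that setting were recentred on the median of the kept probes. With the series matrix values 10 members had a lower centre, without bright input probes 3 had a higher one, and with probes joined within 300 bp 3 had a lower one. With 1 array left out, 7 to 12 neighbouring pairs differed. Mup minus flanks, Cyp2c minus flanks and Cyp2d minus flanks kept their sign in every alternative that could be computed. Serpina minus flanks turned to -0.0061 with both channels above background, -0.035 with at least 5 probes and -0.0023 against the high flank alone, and Cyp4 minus flanks to 0.029 with the median of probes. Cyp2c minus Mup turned to -0.35 with the series matrix and -0.48 with input above background. Cyp2c minus Cyp4 turned to -0.61 and -0.75 under the same choices, and ranged from -0.088 to 0.18 with 1 array left out. Of single regions, Cyp2c 2 turned to -0.90 (series matrix) and -0.43 (mode), and Cyp4 2 to -0.41 (mode). With both channels above background and arrays recentred, Cyp4 2 was at -0.044 and Mup 2 at 0.85, so the zero point differs there too. Cyp2c 1, near 0, turned to 0.29 (median of probes) and 0.082 (without array 1, the range with 1 array left out being -0.24 to 0.082). The difference of Mup 2 from Mup 1 turned to 0.054 with both channels above background. Beyond the shift of the zero point, what moved these values and counts was not tested. Signal over background limits Cyp2c most. No paired analysis was possible because there was 1 group, so replicate numbers pair no samples across groups. The differences between windows were taken within each array.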
